A study of Mus musculus with 8 samples.

Results

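The genes of 8 transcription factors that act in adipocyte differentiation were followed in dermal fibroblasts of mouse back skin: Cebpa, Cebpb, Cebpd, Ebf1, Ebf2, Zfp423, Klf5 and Klf15. Every probe set annotated to exactly 1 of these genes was taken, which gave 14 probe sets of the 45141 in the table, with 3 each for Cebpb, Ebf1 and Ebf2 and 1 for each of the other 5 genes. The GW9662 group comprised 4 mice whose back skin received 150 nmol of GW9662, a compound that binds PPARG irreversibly and blocks this lipid-sensing nuclear receptor, in 300 µl of acetone, 3 times a week for 6 months. The vehicle group comprised 4 mice that received the acetone alone on the same schedule. The labels give all 8 animals as 12 months old, and they name no strain, sex or genotype. After removal of the subdermis, cells positive for Pdgfra and CD34 and negative for CD45, CD117, CD24, CD31 and EpCam were sorted, so the profiled cells are a gated population and not whole skin. The question was how long-term inhibition of PPARG alters the transcriptome of old dermal fibroblasts. The values are log2 signal intensities, 1 array per animal.

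In the textbook account of fat cell formation, C/EBP-beta and C/EBP-delta are induced early, and they switch on PPARG and C/EBP-alpha, which keep each other active in the mature adipocyte. ZFP423 and the early B cell factors EBF1 and EBF2 act in committing mesenchymal cells to the adipocyte lineage, EBF2 above all in brown and beige fat. KLF5 is an early activator of the Pparg promoter, while KLF15 acts later, on glucose and lipid metabolism. All of these factors are also used outside fat, and C/EBP-beta and C/EBP-delta in particular respond to stress and inflammation.

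Promoter sequence is shown for the genes that had the closest relations among the 8 over the animals, so that the elements of each can be read beside the data. RefSeq windows (build GRCm38.p6) matched 5 of the 8 genes, Cebpb, Cebpa, Ebf1, Zfp423 and Klf15; Cebpd, Ebf2 and Klf5 had no entry. Each window below holds the 250 bases before an annotated start, 5′ to 3′ on the strand of the gene. Capitals mark the cyclic AMP response element core TGACG, the C/EBP core TTGCG, the E-box CACGTG, the GC box GGGCGG and the TATA box TATAAA, each searched on both strands. The windows lie at chr2:167688665-167688914 (plus strand) for Cebpb, chr7:35119043-35119292 (plus) for Cebpa, chr6:90462326-90462575 (plus) for Klf15 and chr8:87959596-87959845 (minus) for the upstream of 2 starts of Zfp423.
Cebpb: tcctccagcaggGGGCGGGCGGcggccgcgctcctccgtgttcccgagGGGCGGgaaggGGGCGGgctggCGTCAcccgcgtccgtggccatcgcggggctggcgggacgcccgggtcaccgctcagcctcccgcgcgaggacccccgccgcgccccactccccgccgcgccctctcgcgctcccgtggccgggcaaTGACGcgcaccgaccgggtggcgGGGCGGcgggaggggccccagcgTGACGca
Cebpa: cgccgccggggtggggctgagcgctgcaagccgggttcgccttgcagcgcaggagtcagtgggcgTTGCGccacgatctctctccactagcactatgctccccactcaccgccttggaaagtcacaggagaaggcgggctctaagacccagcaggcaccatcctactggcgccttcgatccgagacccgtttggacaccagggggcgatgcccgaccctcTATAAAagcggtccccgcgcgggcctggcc
Klf15: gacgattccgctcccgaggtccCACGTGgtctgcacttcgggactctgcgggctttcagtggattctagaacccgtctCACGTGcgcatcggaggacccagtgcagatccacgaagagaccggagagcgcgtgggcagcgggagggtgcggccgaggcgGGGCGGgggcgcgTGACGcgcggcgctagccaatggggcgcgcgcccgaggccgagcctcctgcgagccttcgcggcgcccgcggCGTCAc
Zfp423: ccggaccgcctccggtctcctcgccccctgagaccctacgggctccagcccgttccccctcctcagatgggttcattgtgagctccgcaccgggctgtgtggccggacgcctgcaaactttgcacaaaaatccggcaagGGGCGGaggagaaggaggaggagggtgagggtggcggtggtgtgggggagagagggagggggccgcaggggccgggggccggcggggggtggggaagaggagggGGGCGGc
The Cebpb window held 3 matches to TGACG and 5 to GGGCGG, a pair of which overlap. The Cebpa window held 1 match to TTGCG and 1 to TATAAA. Klf15 had 2 matches to TGACG, 2 to CACGTG and 1 to GGGCGG, and Zfp423 had 2 to GGGCGG in the window shown. Of all 32851 windows of this length, 17.8% held TGACG, 14.5% TTGCG, 6.02% CACGTG, 32.7% GGGCGG and 12.4% TATAAA. A match describes these letters only.

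None of the 14 probe sets passed the test of GW9662 against vehicle, and the animals of both groups overlapped for every one. By estimate, Cebpa, Klf5 and Zfp423 were higher after GW9662 by 0.15 to 0.20 on the log2 scale, Cebpd and Klf15 were lower by 0.21 and 0.18, and Cebpb, Ebf1 and Ebf2 lay within 0.1 of 0 in their brightest probe sets. The range over all 14 was -0.21 to 0.20, with 4 estimates above 0 and 10 below, and the median was -0.04. Cebpb, Ebf1 and Ebf2 each entered that count through several probe sets. Reading each of the 8 genes by its brightest set alone put 4 estimates on either side of 0, and the median became 0.019. Over all 45037 probe sets tested the median was -0.0025, and 21542 estimates lay above 0 and 22944 below. In limma with Benjamini-Hochberg adjustment over those 45037, 0 member probe sets passed an adjusted p of 0.05 (smallest adjusted p = 0.997, background 0%). Of the 14 members 0 had an unadjusted p under 0.05, where the background was 3.55% of all probe sets, and at that threshold with the replicate number as a block the background was 4.85% and the members again 0. Groups did not overlap in 1.90% of all probe sets and in 0 of the 14. The values carry no detection calls, so signal over background could not be judged, and levels of different genes are not compared. In a sorted population, fewer cells of a kind and less RNA per cell cannot be told apart.

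**Figure D1:**
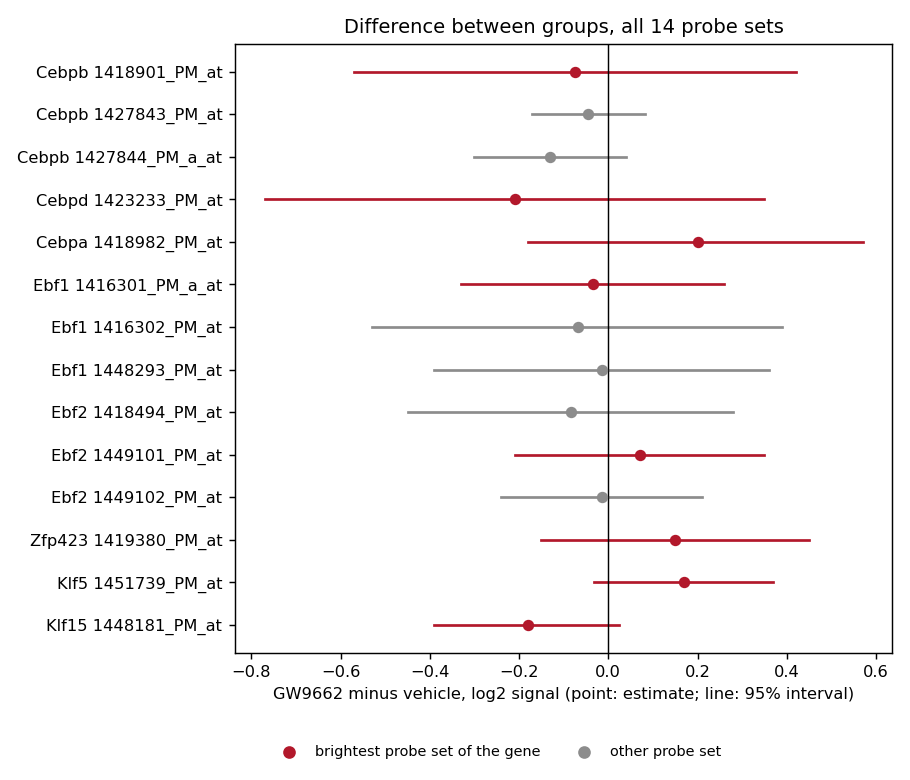
Difference between GW9662 and vehicle on the log2 scale (x axis) for each of the 14 probe sets (rows), with the limma estimate as a point and its 95% interval as a line; red marks the brightest probe set of each gene and grey the others. Every interval spans 0, and the widest is that of Cebpd, -0.77 to 0.35.

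Cebpb encodes C/EBP-beta, an early inducer of adipogenesis. Its brightest probe set (1418901_PM_at) read 7.67, 7.85, 8.27 and 8.82 in GW9662 animals 1 to 4, against 8.11, 8.01, 8.48 and 8.31 in vehicle animals 1 to 4. GW9662 animal 4 was the highest of the 8 and animal 1 the lowest, so the GW9662 group enclosed the vehicle group. The means were 8.15 ± 0.51 in GW9662 and 8.23 ± 0.21 in vehicle (SD, n = 4 each), a difference of -0.075 ± 0.22 (SE) with a 95% interval from -0.57 to 0.42. It turned positive without GW9662 animal 1 (0.086), without GW9662 animal 2 (0.026) and without vehicle animal 3 (0.0092). Animals were killed in pairs, 1 from either group per day, and the same-numbered ones, read as those pairs, differed by -0.44, -0.16, -0.21 and 0.51. Numbers 1 to 3 were lower after GW9662 and number 4 was higher. The dimmer Cebpb probe sets differed by -0.045 ± 0.057 (1427843_PM_at) and -0.13 ± 0.076 (1427844_PM_a_at), and 1427844_PM_a_at was lower in all 4 pairs, as were 5.71% of all probe sets.

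Cebpd encodes C/EBP-delta, which is induced together with C/EBP-beta. It read 7.64, 7.67, 8.22 and 8.84 in GW9662 animals 1 to 4, against 8.42, 7.93, 8.25 and 8.60 in vehicle animals 1 to 4. As for Cebpb, GW9662 animals 1 and 2 were the lowest of all and GW9662 animal 4 the highest. The difference was -0.21 ± 0.25 (SE), exact permutation p = 0.514, with means of 8.09 ± 0.57 in GW9662 and 8.30 ± 0.29 in vehicle (SD, n = 4 each). The pair differences were -0.78, -0.26, -0.03 and 0.24. Without GW9662 animal 1 or 2 the difference was -0.057 or -0.067, and without vehicle animal 4 it was -0.11. Leaving out GW9662 animal 4 moved the difference to -0.46 ± 0.18 for Cebpd and to -0.30 ± 0.15 for Cebpb, with a limma adjusted p of 0.974 for each. Leaving out both animals numbered 4 and using the pairs gave -0.36 ± 0.14 for Cebpd and -0.27 ± 0.083 for Cebpb (unadjusted p = 0.0335 and 0.0135, limma adjusted p = 0.842 for both).

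Cebpa encodes C/EBP-alpha, which with PPARG maintains the adipocyte program. It read 8.84, 8.39, 8.67 and 8.07 in GW9662 animals 1 to 4, against 8.34, 8.34, 8.53 and 7.97 in vehicle animals 1 to 4. GW9662 animal 1 was the highest and the 2 animals numbered 4 were the lowest of their groups. The means were 8.49 ± 0.34 in GW9662 and 8.29 ± 0.23 in vehicle (SD, n = 4 each), a difference of 0.20 ± 0.17 (SE) with a 95% interval from -0.18 to 0.57 (exact permutation p = 0.343). Cebpa was higher after GW9662 in 4 of 4 pairs, by 0.50, 0.05, 0.14 and 0.10, as were 5.40% of all probe sets. The exact sign flip of the pair differences gave p = 0.125, the smallest that 4 pairs allow, and the blocked fit gave an unadjusted p of 0.0546 (limma adjusted p = 0.975). The difference was 0.082 without GW9662 animal 1, 0.34 without GW9662 animal 4 and 0.089 without vehicle animal 4.

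**Figure D2:**
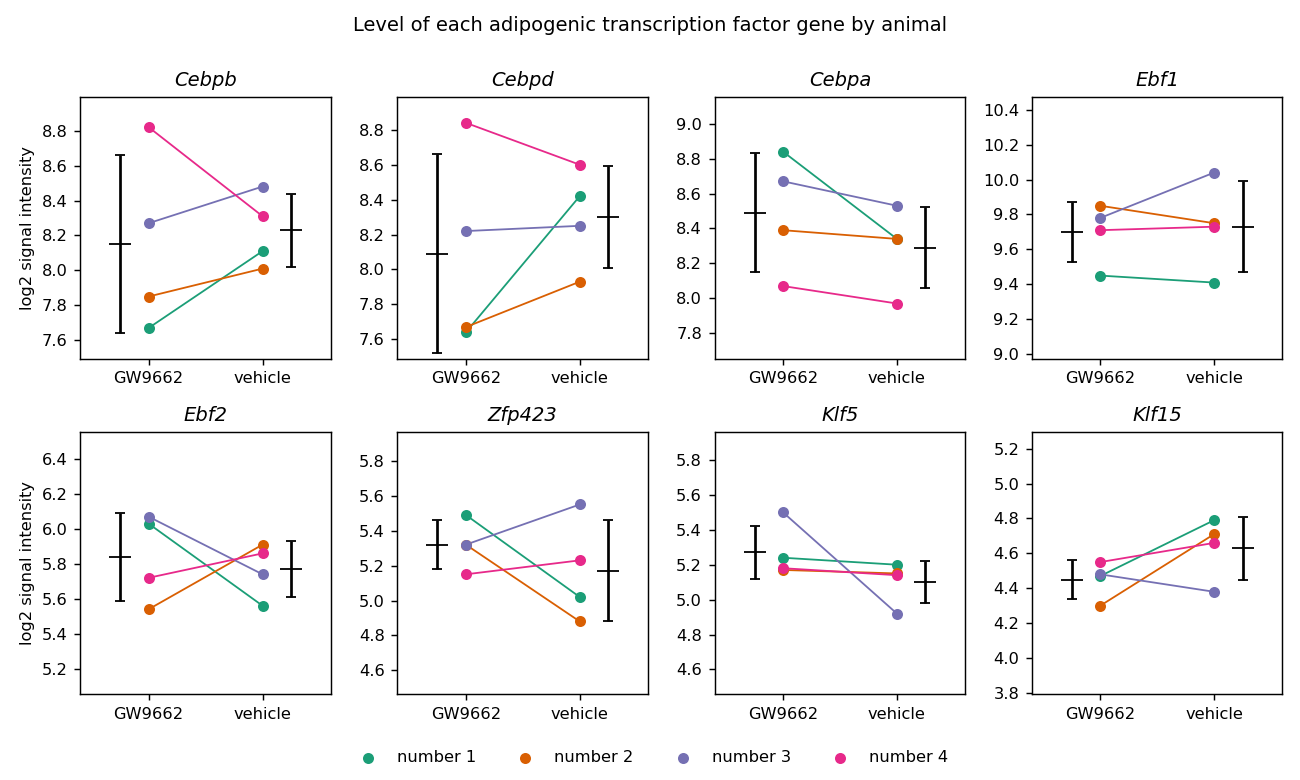
Log2 signal intensity (y axis, the same span of 1.5 in each panel) of the brightest probe set of each gene in GW9662 animals (left) and vehicle animals (right); points and lines are animals joined by replicate number, and black bars give the mean ± SD of 4 animals. In every panel the groups overlap; Cebpb and Cebpd are widest in the GW9662 group, and number 4 is lowest in both groups for Cebpa.

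Ebf1 encodes an early B cell factor that acts in preadipocytes and in B cells. Its brightest probe set (1416301_PM_a_at) read 9.45, 9.85, 9.78 and 9.71 in GW9662 animals 1 to 4, against 9.41, 9.75, 10.04 and 9.73 in vehicle animals 1 to 4. The animals numbered 1 were the lowest of both groups. The means were 9.70 ± 0.17 in GW9662 and 9.73 ± 0.26 in vehicle (SD, n = 4 each), and the difference was -0.035 ± 0.13 (SE). The other Ebf1 probe sets differed by -0.068 ± 0.20 and -0.015 ± 0.17. The 3 sets correlated with each other over the 8 animals, with Pearson r from 0.96 to 0.97 and Spearman rho from 0.67 to 0.92. Their sign turned to positive without GW9662 animal 1 (0.047, 0.076 and 0.12) and without vehicle animal 3 (0.067, 0.11 and 0.10).

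Ebf2, known from brown and beige preadipocytes, read 6.03, 5.54, 6.07 and 5.72 in GW9662 animals 1 to 4 with its brightest probe set (1449101_PM_at), against 5.56, 5.91, 5.74 and 5.86 in vehicle animals 1 to 4. The GW9662 animals numbered 1 and 3 were above their vehicle partners and those numbered 2 and 4 below. The means were 5.84 ± 0.25 in GW9662 and 5.77 ± 0.16 in vehicle (SD, n = 4 each), a difference of 0.072 ± 0.13 (SE), while the other Ebf2 probe sets gave -0.083 ± 0.16 and -0.015 ± 0.10. The 3 sets disagreed in sign although they correlated with each other over the animals at 0.66 to 0.91.

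Zfp423, a zinc finger regulator of preadipocyte commitment, read 5.49, 5.32, 5.32 and 5.15 in GW9662 animals 1 to 4, against 5.02, 4.88, 5.55 and 5.23 in vehicle animals 1 to 4. Vehicle animal 3 was the highest of the 8, and vehicle animals 1 and 2 were the lowest. The means were 5.32 ± 0.14 in GW9662 and 5.17 ± 0.29 in vehicle (SD, n = 4 each), a difference of 0.15 ± 0.13 (SE, exact permutation p = 0.371). It was 0.28 ± 0.10 without vehicle animal 3 and 0.053 ± 0.13 without vehicle animal 2, with limma adjusted p of 0.982 and 0.987.

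Klf5 encodes a zinc finger factor that acts with the early C/EBPs. It read 5.24, 5.17, 5.50 and 5.18 in GW9662 animals 1 to 4, against 5.20, 5.15, 4.92 and 5.14 in vehicle animals 1 to 4. Pair 3 alone showed a gap of 0.58, and the other pairs differed by 0.02 to 0.04. The means were 5.27 ± 0.15 in GW9662 and 5.10 ± 0.12 in vehicle (SD, n = 4 each), a difference of 0.17 ± 0.091 (SE, exact permutation p = 0.114). Klf5 was higher after GW9662 in 4 of 4 pairs, as were 5.40% of all probe sets. The exact sign flip of the pair differences gave p = 0.125, the smallest that 4 pairs allow. Without GW9662 animal 3 the difference was 0.094 ± 0.079, and without vehicle animal 3 it was 0.11 ± 0.088.

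Klf15 had the smallest unadjusted p of the 14 probe sets, 0.078 in limma (adjusted p = 0.997). Its mean level of 4.54 lay below the median level of 4.65 over all probe sets. The gene encodes a zinc finger factor that activates the glucose transporter gene Slc2a4 and is a known target of glucocorticoids. It read 4.47, 4.30, 4.48 and 4.55 in GW9662 animals 1 to 4, against 4.79, 4.71, 4.38 and 4.66 in vehicle animals 1 to 4. Of the 4 vehicle animals, 3 lay above every GW9662 animal and vehicle animal 3 lay below all but GW9662 animal 2. The means were 4.45 ± 0.11 in GW9662 and 4.63 ± 0.18 in vehicle (SD, n = 4 each), with a difference of -0.18 ± 0.094 (SE), a 95% interval from -0.39 to 0.025 (exact permutation p = 0.114). Klf15 was lower in 3 of 4 pairs. Without vehicle animal 3 the difference was -0.27 ± 0.075 (unadjusted p = 0.00602, limma adjusted p = 0.982).

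The spread between animals depended on the probe set as well as the gene. In the brightest sets the SD over the 8 animals was 0.43 for Cebpd, 0.36 for Cebpb and 0.29 for Cebpa, and 99.3%, 98.6% and 96.5% of all probe sets had a smaller one. Among the probe sets with a mean above the median of the table these shares were 98.7%, 97.5% and 93.7%. For the brightest sets of Ebf1, Ebf2 and Zfp423 the SD was 0.20, 0.20 and 0.23, and for Klf5 and Klf15 it was 0.16 and 0.17, beside a median of 0.11 over all probe sets. The dimmer Cebpb sets had an SD of 0.06 and 0.12, and 8.5% and 55.1% of all probe sets had a smaller one. The other Ebf1 sets, at 0.34 and 0.27, and Ebf2 1418494_PM_at, at 0.27, had SDs near those of the brightest Cebpb and Cebpa sets, so a wide spread was not particular to the C/EBP genes. Among the brightest sets, the SD of the 4 means of same-numbered animals was 0.39 for Cebpd, 0.33 for Cebpb and 0.27 for Cebpa, and it was lowest for Klf5 (0.03) and Ebf2 (0.07).

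Over the 8 animals the highest r among the 8 genes was that of Cebpb with Cebpd, and no relation passed adjustment. Of the 28 pairs of genes, 13 had a positive and 15 a negative Pearson r, 2 had an unadjusted exact permutation p under 0.05, and 0 passed adjustment over the 28. Cebpb and Cebpd gave r = 0.89 and Spearman rho = 0.88 (n = 8, exact permutation p = 0.00362 and 0.00724, adjusted p = 0.101 and 0.157). The relation was r = 0.72 without GW9662 animals 1 and 4, which lay farthest from the median of both genes, 0.89 with group means removed and 0.83 with the means of same-numbered animals removed. Within groups it was 0.99 in GW9662 and 0.44 in vehicle, each over 4 animals. It was 0.68 and 0.48 with the dimmer Cebpb sets in place of the brightest. By r with Cebpd, Cebpb ranked 50 of 17096 genes.

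Cebpa and Cebpd gave r = -0.70 and rho = -0.75 (n = 8, exact permutation p = 0.0516 and 0.0377, adjusted p = 0.481 and 0.352). Without GW9662 animals 1 and 4, the farthest in Cebpd, r was -0.39. It was -0.71 within GW9662 and -0.60 within vehicle, each over 4 animals, -0.84 with the means of same-numbered animals removed, and -0.81 to -0.56 leaving out 1 animal at a time. Cebpa and Cebpb gave r = -0.56 and rho = -0.49 (exact permutation p = 0.148 and 0.222), and r was 0.09 without those animals, -0.77 within GW9662 and 0.12 within vehicle. Zfp423 and Klf15 were opposed, with r = -0.79 and rho = -0.85 (n = 8, exact permutation p = 0.0217 and 0.0112, adjusted p = 0.304 and 0.157). That r was -0.72 without the 2 animals farthest in Zfp423, -0.77 with group means removed, and -0.93 with the means of same-numbered animals removed. It was -0.31 within GW9662 and -0.90 within vehicle, each over 4 animals. The Klf15 probe set lay below the median level of all probe sets. The next pair, Ebf1 and Klf15, had r = -0.58 and rho = -0.64 (exact permutation p = 0.135 and 0.0962), with r = -0.10 without the 2 animals farthest in Ebf1. The remaining pairs lay between -0.43 and 0.53. Each number marks only 2 animals, so no correlation within a day could be computed.

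**Figure D3:**
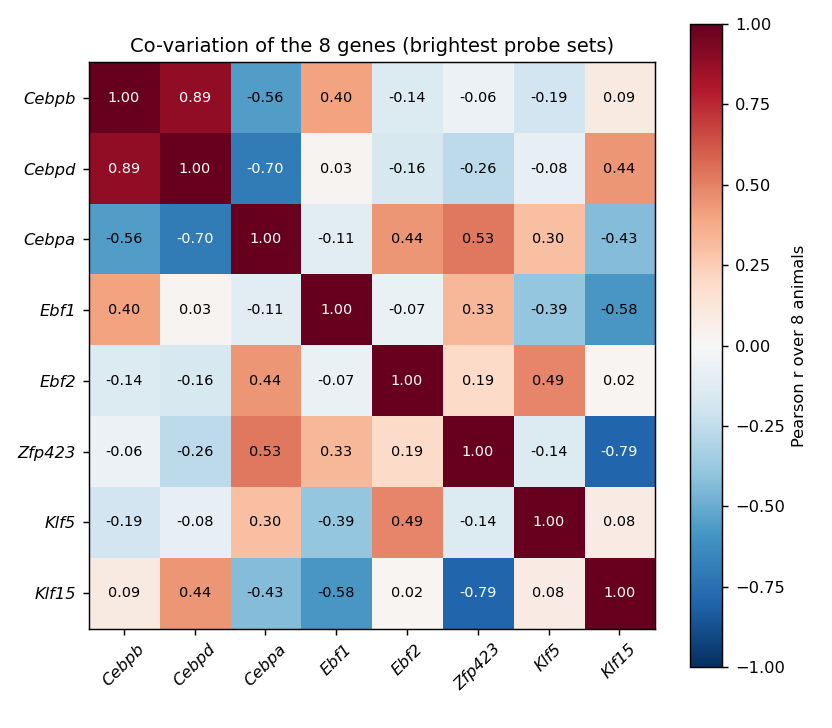
Pearson r over the 8 animals between the brightest probe sets of the 8 genes, from -1 (blue) to 1 (red). Cebpb with Cebpd (0.89), Zfp423 with Klf15 (-0.79) and Cebpd with Cebpa (-0.70) have the largest absolute r of the 28 pairs.

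**Figure D4:**
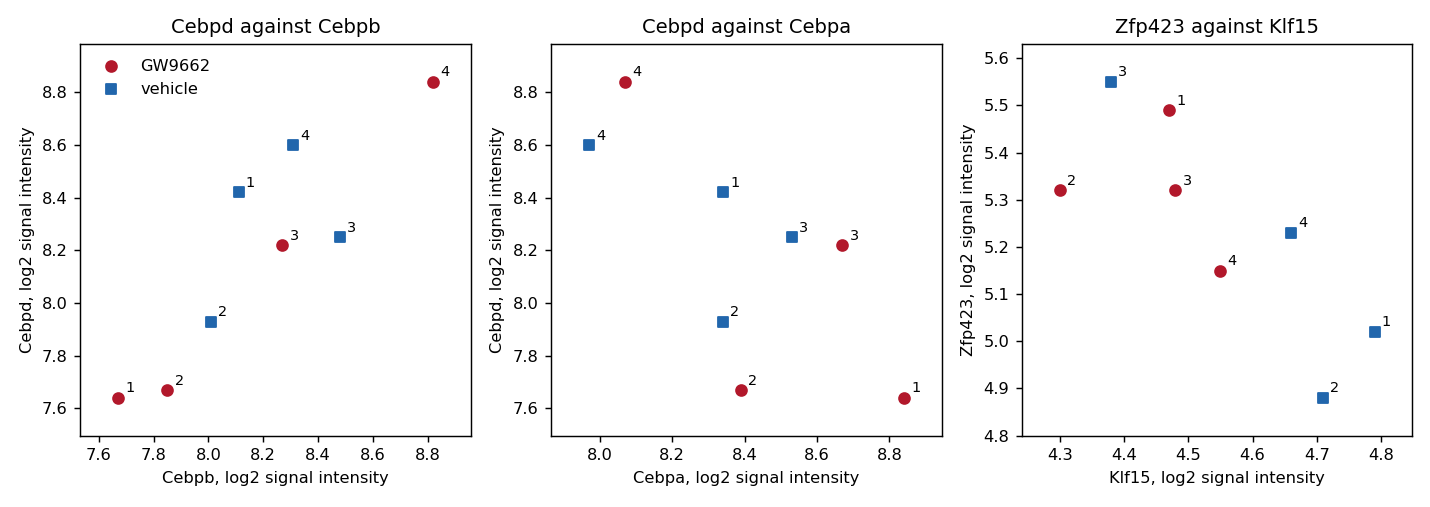
Log2 signal intensity of Cebpd against Cebpb (left), Cebpd against Cebpa (middle) and Zfp423 against Klf15 (right); red circles are GW9662 animals, blue squares vehicle animals, and digits are replicate numbers. GW9662 animals 1 and 4 lie at opposite ends of the C/EBP plots, whereas in the right plot vehicle animal 3 lies apart from vehicle animals 1 and 2.

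By the rule of highest Pearson r over the 8 animals among the 8267 or 8268 brighter genes compared, Cebpb was followed most closely by Maff, a small Maf factor (0.987), Junb, an immediate early subunit of AP-1 (0.984), and Hmox1, the stress-induced heme oxygenase (0.979). Cebpd was closest to Mapkapk3, a kinase downstream of p38 (0.971), Tcf7l2, a nuclear effector of Wnt signalling (0.967), and Klf17 (0.951). Cebpa was closest to Cnn2, a calponin (0.971), Ctnnb1, the beta-catenin gene (0.969), and Cdk7 (0.966). Each is the top of a long ranking over only 8 animals and is a description. Ebf1 was closest to Thbs2, the gene of thrombospondin 2 (0.974), Pgr, the progesterone receptor (0.973), and Greb1 (0.961). Pgr and Greb1 had wide ranges over the animals, 5.28 to 8.72 and 5.02 to 7.47. Ebf2 was closest to Vav2, Zbtb12 and Sh3bp5l (0.893 to 0.929). Zfp423 was closest to Ercc6l2, Prss23 and Sbno1 (0.935 to 0.973). For Klf5 the closest were Chst2, Arhgap32 and Gtf2e2 (0.930 to 0.962), and for Klf15 they were Bbs7, Sfn and Ltbp4 (0.925 to 0.952). Some of the closest genes had narrow ranges, such as Sfn (5.44 to 5.58), Klf17 (5.36 to 5.58) and Arhgap32 (7.04 to 7.28). With the means of same-numbered animals removed, r was 0.80 or higher for each of these 24. That r rests only on the differences within same-numbered pairs. The 24 genes were picked from the same values, so it is no separate test of the relations. Spearman rho over the 8 animals for Klf5 was 0.86 with Chst2, 0.81 with Arhgap32 and 0.72 with Gtf2e2. For the genes listed with the other members, rho was 0.86 or higher.

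Pparg, the gene of the inhibited receptor and the partner of C/EBP-alpha, read 5.0, 4.90, 5.05 and 4.46 in GW9662 animals 1 to 4, against 4.63, 4.75, 4.99 and 5.13 in vehicle animals 1 to 4. The groups overlapped, and their means were 4.85 ± 0.27 in GW9662 and 4.88 ± 0.23 in vehicle (SD, n = 4 each). Its r with the 8 genes ran from -0.37 for Cebpb, Cebpd and Klf15 to 0.60 for Zfp423 (n = 8, exact permutation p = 0.122, adjusted over the 8 relations 0.508), and Spearman rho for Zfp423 was 0.54 (exact permutation p = 0.177). With Cebpa r was 0.36 (exact permutation p = 0.381) and rho 0.30 (exact permutation p = 0.471). That r was 0.94 without the 2 animals farthest in Cebpa and 0.32 with the means of same-numbered animals removed. For Cebpb, r with Pparg was 0.54 without the 2 animals farthest in Cebpb and -0.96 with the means of same-numbered animals removed, so neither relation kept its size.

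The other genes of the pathway were read from lists by role, each gene by its brightest probe set, and 0 of them passed limma over all probe sets. A listed gene counted as measured if a probe set was annotated to it alone. Among relatives and partners of the C/EBPs, 7 of 9 listed genes were measured, 3 higher and 4 lower, with a median log2 difference of -0.04. Dbp, a clock-driven bZIP factor, was at 0.59 ± 0.21 (SE) and was the only gene of these lists with an unadjusted p under 0.05 (0.0202, limma adjusted p = 0.997). That count of 1 among 74 genes was 6 with the replicate block and 5 with array weights. It was 12 with the block and without both animals numbered 4. Leaving out 1 animal at a time gave 0 to 9 (9 without GW9662 animal 4). Over all 45037 probe sets the count was 1597 in the main fit, 2185 with the block and 1855 with array weights. It was 2636 with the block and without both animals numbered 4. Leaving out 1 animal at a time gave 1049 to 2265 (2265 without GW9662 animal 4). Ddit3, which dimerises with C/EBPs and blocks them, was at -0.14 ± 0.074 and Hlf at 0.19 ± 0.10. Of 19 measured early inducers, 6 were higher and 13 lower (median -0.035), among them Nr3c1, the glucocorticoid receptor, at -0.14 ± 0.068, Creb1, an activator of Cebpb, at -0.12 ± 0.071 and Egr2 at 0.17 ± 0.079. Of 20 measured inhibitors of adipogenesis, 8 were higher and 12 lower (median -0.01), among them Tgfb1 at -0.28 ± 0.13, Wwtr1, the gene of TAZ, at -0.10 ± 0.061 and Ctnnb1 at 0.13 ± 0.085. PPARG, the RXRs and cofactors had 4 of 12 higher and 8 lower (median -0.023), with Ncoa2 at -0.14 ± 0.071, Med1 at -0.14 ± 0.10 and Ncoa1 at -0.08 ± 0.07. Target genes of the mature adipocyte had 4 of 16 higher and 12 lower (median -0.018), with Dgat2 at 0.15 ± 0.087, Adipoq, the adiponectin gene, at -0.09 ± 0.065 and Lipe at -0.14 ± 0.11. Medians of this size compare with -0.005 over all genes.

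The mean log2 level of the 10 fibroblast markers was 10.28 to 10.39 in GW9662 and 10.15 to 10.41 in vehicle. Cd34, a positive sort marker, averaged 10.71 in both groups. Pdgfra, the other positive sort marker, averaged 4.96 ± 0.17 in GW9662 and 4.86 ± 0.23 in vehicle (SD, n = 4 each). Of the adipocyte markers, 3 of 6 had a probe set annotated to the gene alone (Adipoq, Lep and Retn). Their mean level was 4.06 to 4.15 in GW9662 and 4.08 to 4.28 in vehicle. Over the 8 animals this mean had r = -0.84 with Cebpa, with Adipoq at -0.57, Lep at -0.19 and Retn at -0.75. Adipoq (3.01 to 3.29) and Lep (3.84 to 3.99) lay below the median gene level and spanned little over the animals. The mean of 6 endothelial markers lay between 4.88 and 5.24 in GW9662 and between 4.82 and 5.36 in vehicle, and its r with Ebf1 was 0.83. Of the 6, Kdr had an r with Ebf1 of 0.90, Tek and Cldn5 0.63, Pecam1 0.48, Vwf 0.07 and Cdh5 -0.14. Pecam1 encodes CD31, against which the cells were gated. The endothelial mean had r = 0.69 with Cebpb and 0.46 with Cebpd, and the fibroblast mean had r = -0.51 with Cebpb and -0.69 with Cebpd. The fibroblast markers differed in sign. With Cebpb, Col1a2 was at -0.78, Col3a1 -0.72, Col1a1 -0.55, Pdgfrb -0.47 and Lum -0.43. Against these stood Cd34 at 0.06, Thy1 0.08, Dcn 0.10, Pdgfra 0.20 and Dpt 0.34. With Cebpd, Dpt (0.56) and Dcn (0.17) were positive and the others negative, down to -0.81 for Col1a2. The mean of 5 pericyte and smooth muscle markers, 4.78 to 4.90 in GW9662 and 4.80 to 5.05 in vehicle, had r = -0.77 with Klf5. Its members differed in sign, with Rgs5 and Myh11 at -0.68, Des at -0.21, Acta2 at 0.07 and Notch3 at 0.34. The part of these markers in the levels of Cebpa, Cebpb, Cebpd, Ebf1 and Klf5 was not tested, and these values are given with no p. Vehicle animal 4 stood apart on the first principal component of all genes (22.2 against -10.4 to 5.49 for the other 7), and that component correlated with Cebpd at 0.72, with Cebpb at 0.61 and with Cebpa at -0.72. Without that animal, r of Cebpb with Cebpd was 0.91.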

How the data were processed

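Per the labels, bead-purified RNA of 5000 sorted cells per animal went through 21 cycles of amplification before 7.8 µg of cDNA was put on each array. The deposited values are log2 intensities to 2 decimals, 45141 probe sets in 8 samples; the authors used RMA and affy, per the submitters' processing notes, without versions. No source states the log base; values of 2.44 to 12.96 fit log2. Sample medians were 4.63 to 4.69, so no further scaling was applied.

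Gene names came from GEO's platform table, updated through RefSeq (28898 with 1 gene, 551 with several, 15692 unnamed). The brightest set, by mean over the 8 samples, stood for a gene, which left 17097 genes. GW9662 minus vehicle was fitted over 45037 probe sets, without 104 controls, with limma 3.58.1 in R 4.3.3 (lmFit, eBayes, no covariate, two-sided, Benjamini-Hochberg); the fit was tested on simulated data. Single values also had exact permutation tests over 70 assignments of samples (smallest p 0.0286) or 16 sign flips of pair differences (smallest p 0.125). Correlations used 40320 exact pairings, two-sided, in Python 3.11.15; their p-values treat the 8 samples as independent, which same-day pairs may not be.

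Named genes were the 8 members, the 3 genes of highest r with each (ordinary symbols, mean level above the median of genes), the 3 of smallest p per companion list, and Pparg, Pdgfra, Cd34 and Adipoq; the other marker genes named were chosen after their values were seen. Members and lists were chosen with earlier results of these data known. Replicate numbers were read as pairs: deviations from group means of same-numbered samples correlated at 0.203, 0.163, 0.114 and 0.165 across genes for numbers 1 to 4. The highest r with samples of other numbers was 0.159, 0.111, 0.0598 and 0.0159, in the same order. No 2 samples shared more than 3.05% of values. Precision is limited by having 4 arrays a group.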

Additional observations from a re-analysis of the deposited data

Results flagged for a closer look

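GW9662 animal 1 lay far below the other 3 GW9662 animals in 1 of the 3 Ebf1 probe sets (1448293_PM_at), at 7.57 against 8.09 to 8.15 on the log2 scale. The gap was 0.897 of the range of the group, above the 95% limit of Dixon's test for 4 samples. Its same-day partner, vehicle animal 1, was the lowest of its group in that set, at 7.60. This was the only such gap among 28 groups of 4 tested, and chance gives about 1 in 20.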

How the results depend on the processing

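No member probe set and no companion gene passed an adjusted p of 0.05 in limma under any alternative run: the replicate number as a block, trend and robust variances, brighter probe sets only, 1 probe set or the mean of sets per gene, renewed quantile normalisation, median centring, array weights, each animal left out, and both animals numbered 4 left out with the block. The replicate block called 0 probe sets overall and 0 members, as in the fit without it, and changed no other call. With no other change, an adjusted p under 0.10 gave 0 and an unadjusted p under 0.05 gave 1597 probe sets. The smallest adjusted p over all probe sets was 0.0884 with the block and without both animals numbered 4, and 0.949 or higher under the other alternatives. Members with an unadjusted p under 0.05 numbered 0 to 2. There were 2 without GW9662 animal 4 (Cebpd, Cebpa), without vehicle animal 3 (Zfp423, Klf15) and without both animals numbered 4 (Cebpb, Cebpd). There was 1 with array weights (Klf15) and 1 without GW9662 animal 3 (Ebf2). The same runs, in the order named, gave 2265, 1987, 2636, 1855 and 1049 of all 45037 probe sets. Signs near 0 were not stable. Leaving out 1 animal at a time gave -0.30 to 0.086 for the brightest Cebpb set, -0.14 to 0.067, -0.23 to 0.11 and -0.15 to 0.12 for the Ebf1 sets (1416301_PM_a_at, 1416302_PM_at, 1448293_PM_at), and -0.25 to 0.031, -0.0042 to 0.17 and -0.10 to 0.04 for the Ebf2 sets (1418494_PM_at, 1449101_PM_at, 1449102_PM_at). Array weights gave 0.005 for Ebf1 1448293_PM_at and 0.011 for Ebf2 1449102_PM_at, the mean of probe sets gave -0.0083 for Ebf2, and leaving out both animals numbered 4, with the block, gave 0.063 for 1418494_PM_at and 0.043 for 1449102_PM_at. The causes were not tested. Cebpd, Cebpa, Zfp423, Klf5, Klf15 and the dimmer Cebpb sets kept their sign wherever they were fitted; the filter on brighter probe sets left out Klf15 and Ebf2 1449102_PM_at. Of the 28 gene pairs, 1 passed adjustment (Cebpb with Cebpd) with the mean of probe sets (r = 0.91, adjusted exact permutation p = 0.0410), and leaving out 1 animal at a time gave 0 to 1 pairs, the 1 being the same pair without vehicle animal 3 (r = 0.92, adjusted exact permutation p = 0.0333). Its adjusted p ranged up to 0.669 with the pair means removed, where only 4 differences were reordered and flipped in sign. With 4 animals a group, the widest member interval, that of Cebpd, ran from -0.77 to 0.35.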

Other observations

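The 3 Cebpb probe sets differed in their relation to the other C/EBP genes, an observation made after the values were seen. The brightest set (1418901_PM_at) correlated with the dimmer sets at 0.46 and 0.37 over the 8 animals, while the dimmer sets correlated with each other at 0.89. Against Cebpa, the brightest set had r = -0.56, and the dimmer sets -0.95 (1427843_PM_at) and -0.84 (1427844_PM_a_at). Against Cebpd the order was the other way round, with 0.89 for the brightest and 0.68 and 0.48 for the dimmer sets. The dimmer sets spanned only 5.08 to 5.26 and 5.69 to 6.07 over the animals, against 7.67 to 8.82 for the brightest. The sign of r with Cebpa was negative for all 3 Cebpb sets, and r with Cebpd was greatest for the set with the widest range. Which part of the transcript each set reads was not analysed here.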
